A study of Mus musculus with 6 samples.

Results

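The 10 genes described here encode secreted proteins that hold back or strengthen Wnt signaling outside the cell. They are 4 genes of the secreted Frizzled-related protein family (Sfrp1, Sfrp2, Sfrp4 and Frzb, also known as Sfrp3), Wif1, 2 genes of the Dickkopf family (Dkk2 and Dkk3) and 3 R-spondins (Rspo1, Rspo2 and Rspo3). They were taken by symbol, as a named list, from the 27179 genes of the count table. All 10 passed the filter on low counts that left 14855 genes for testing. The list was chosen with earlier results of these data known. It leaves out Rspo4, Sfrp5, Dkk1 and Dkk4 of the same families, which did not pass this filter.

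Gene expression was measured by bulk RNA sequencing of cancer-associated fibroblasts (CAFs) from 3 mouse mammary tumors. Each tumor gave a CD34 negative and a CD34 positive library, so there were 3 libraries per group and both groups held the same tumors. All 6 libraries came from raGFP-Wnt1 animals, which carry an MMTV-Wnt1 transgene and 1 Pdgfra allele with a nuclear GFP knocked in, and the sorted cells were GFP+. The comparison asks how the CD34 negative CAFs, which the study describes as myofibroblastic, differ from the CD34 positive CAFs. In this model the mouse mammary tumor virus promoter drives Wnt1 in the mammary epithelium, so both CAF fractions came from tumors whose epithelium carries the transgene, and no CAFs from a tumor without the transgene enter the comparison. The number and age of the mice that bore the tumors were not stated in the sources used here. Without a term for the tumor, p-values rest on the spread between the 3 libraries of each fraction. With such a term, they rest on how much the difference between the fractions varied across the 3 tumors. Both describe these tumors only.

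Wnt proteins signal by binding a Frizzled receptor together with the co-receptor LRP5 or LRP6. Secreted Frizzled-related proteins and WIF1 bind Wnt ligands directly, whereas DKK proteins of the DKK1, DKK2 and DKK4 type bind LRP5 and LRP6 and leave the ligand free. R-spondins act in the opposite direction: they bind LGR4, LGR5 or LGR6 and the ubiquitin ligases RNF43 and ZNRF3, which otherwise remove Frizzled receptors from the surface. Fibroblasts are a known source of both kinds of protein in many tissues.

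Cd34, the gene of the surface protein used for the sort, had 74.3 ± 30.2 CPM (counts scaled to the size of the library) in the CD34 negative and 948 ± 571 CPM in the CD34 positive libraries (mean ± SD, n = 3 each), a log2 fold change of -3.63 (adjusted p = 0.0414, limma-voom with Benjamini-Hochberg adjustment). Pdgfra, the gene that carries the reporter, had 302 to 468 CPM and 336 to 506 CPM. Library totals ranged from 16238059 to 86609267 counts, and the CD34 negative library of tumor 3 stood apart, with 159 genes at 0 that averaged at least 2 CPM in the other libraries, against 1 to 31 in the others. The 6 fibroblast markers summed to 37810 to 57150 CPM, led by Col1a2, a collagen gene. The summed markers of epithelial (led by Krt8), endothelial (led by Kdr), immune (led by Lyz2), Schwann (led by S100b) and fat cells (led by Adipoq) reached at most 168, 28.6, 19.7, 18.3 and 0.882 CPM, and overlapped between the groups. Within each tumor, however, the epithelial sum was higher in the CD34 negative library. It was 168.1, 147.5 and 58.87 CPM in tumors 1, 2 and 3, against 143.5, 100.4 and 20.57 CPM in the CD34 positive libraries. In limma-voom with the tumor as a term, 0 of the 7 epithelial markers had an adjusted p under 0.05, against 8.57% of all tested genes. The 6 pericyte markers, led by Cspg4, which CAFs also express, summed to 211 to 236 CPM in the CD34 negative and 86.8 to 188 CPM in the CD34 positive libraries, without overlap, and none was at 0 in any library. They did not move together. With the tumor as a term of the fit, Cspg4 (log2 fold change 1.805), Notch3 (1.55) and Mcam (2.15) were higher in CD34 negative CAFs. Their adjusted p were 0.003086, 0.006007 and 0.002515 (limma-voom). Kcnj8 (-2.31, adjusted p = 0.0161, limma-voom) and Abcc9 (-1.71, adjusted p = 0.0123, limma-voom) were lower. Rgs5 had 3.72 to 10.67 CPM in the CD34 negative and 0.247 to 1.176 CPM in the CD34 positive libraries. Its log2 fold change of 2.60 did not pass (adjusted p = 0.0803, limma-voom). All but Cspg4 were named after their values were seen. The part of the epithelial and pericyte markers in the results below was not tested. In sorted bulk samples, fewer cells that use a gene and less RNA per cell cannot be told apart.

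The start regions of Frzb and Dkk2, both higher in CD34 negative CAFs in the fit with a tumor term, are shown from the RefSeq promoter table, which has an entry for 5 of the 10 genes. Each is the 250 bases before the start that this table uses, 5′ to 3′ on the gene's strand, in build GRCm38.p6. Annotations place the start differently: the last 26 bases of the Dkk2 window lie inside the RefSeq gene span given below, and 229 bases of the Frzb window lie inside the GENCODE span of the gene, though none inside its RefSeq span. Capitals mark the letters CTTTGA or CTTTGT, the core bound by the TCF/LEF factors of the Wnt pathway, and TATAAA, the TATA box, each on either strand. The windows lie at chr2:80447397-80447646 (minus strand) and chr3:132085042-132085291 (plus strand).
Frzb: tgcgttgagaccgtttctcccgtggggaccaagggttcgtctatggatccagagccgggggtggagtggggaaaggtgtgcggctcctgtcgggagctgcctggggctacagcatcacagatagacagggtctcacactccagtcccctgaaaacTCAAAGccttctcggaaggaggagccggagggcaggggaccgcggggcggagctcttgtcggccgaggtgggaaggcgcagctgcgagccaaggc
Dkk2: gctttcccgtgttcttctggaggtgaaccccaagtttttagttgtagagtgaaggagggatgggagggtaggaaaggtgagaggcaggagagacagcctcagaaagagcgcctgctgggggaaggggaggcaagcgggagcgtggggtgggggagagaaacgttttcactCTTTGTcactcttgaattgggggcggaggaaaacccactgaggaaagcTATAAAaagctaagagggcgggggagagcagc
The Frzb window holds 1 CTTTGA, read on the opposite strand as TCAAAG, 95 to 90 bases before the start. The Dkk2 window holds CTTTGT 80 to 75 bases and TATAAA 32 to 27 bases before its start. Of 32851 promoter windows of the same length, 13.8% hold CTTTGA, 16.5% CTTTGT, 27.6% either of these and 12.4% TATAAA. These matches describe the letters only. The table's windows of Sfrp2, Wif1 and Rspo1 hold neither TCF/LEF core, and the Wif1 window has TATAAA on the opposite strand 232 to 227 bases before the start. All 250 bases of the Sfrp2 window and 29 of the Rspo1 window lie inside the RefSeq gene span. Of the Wif1 window, 44 bases lie inside the GENCODE span.

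In CPM per kilobase of transcript, a scale on which genes can be compared, the CAFs carried far more antagonist than R-spondin RNA. Averaged over the 6 libraries, Sfrp2 lay above 98.5% of the tested genes, Sfrp4 above 97.1%, Sfrp1 above 96.9% and Dkk3 above 96.7%. Dkk2 lay above 88% and Frzb near the middle, above 50.9%. Wif1, Rspo1, Rspo3 and Rspo2 lay above 29.8%, 18.1%, 11% and 9.16%. These ranks used the deposited transcript lengths. The 7 antagonists together had 239 to 5160 times the level per kilobase of the 3 R-spondins, and the highest of these ratios came from the CD34 negative library of tumor 3, in which Rspo3 had no count. The other 5 ratios ran from 239 to 670. Rspo4, the fourth R-spondin, is not in these sums. It had 0.812 CPM per kilobase in the CD34 negative library of tumor 3, against 0.137 for the other 3 together. The size of the highest ratio depends on leaving it out.

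**Figure D1:**
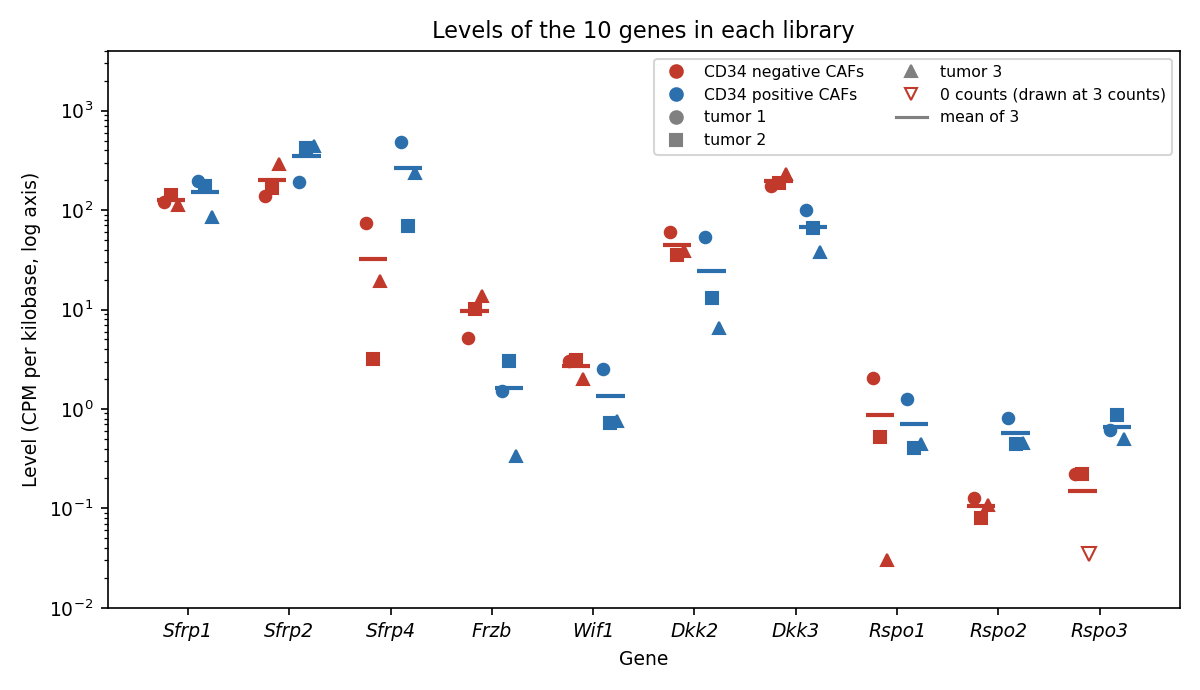
Level of each of the 10 genes in each library, in CPM per kilobase on a log axis, with CD34 negative CAFs in red, CD34 positive CAFs in blue, a marker shape for each tumor and a line at the mean of 3 libraries. Sfrp1, Sfrp2 and Dkk3 are above 30 CPM per kilobase in all 6 libraries, the R-spondins are at or below 2.06, and the open triangle is the Rspo3 library with 0 counts, drawn at the level of 3 counts.

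The order of the genes differed between the fractions. In CD34 negative CAFs, Sfrp2 (199 ± 80.4 CPM per kilobase, SD, n = 3) and Dkk3 (198 ± 30.9) came first and their libraries overlapped. Sfrp1 followed at 125 ± 15.7, below every Dkk3 library, and Dkk2 (44.8 ± 13.7), Sfrp4 (32.1 ± 36.9) and Frzb (9.64 ± 4.23) came next, with each of these neighbors overlapping the next. In CD34 positive CAFs, Sfrp2 (351 ± 138), Sfrp4 (264 ± 209), Sfrp1 (153 ± 58.9), Dkk3 (68.1 ± 31.5) and Dkk2 (24.4 ± 25.5) followed each other, each overlapping the next. Frzb (1.63 ± 1.35) lay below every Dkk2 library there. Wif1, Rspo1, Rspo3 and Rspo2 held the last places in this order in both fractions, and each overlapped its neighbor in that order. Sfrp4 and Rspo2 depend most on the transcript length used: with exon lengths from GENCODE in place of the deposited ones, Sfrp4 had 13.5 and 111 CPM per kilobase in the CD34 negative and positive CAFs and Rspo2 0.0685 and 0.373, against 0.105 and 0.572 with the deposited length. The order changes too. Sfrp2 has 2153 bases in GENCODE and 2001 as deposited, and on the GENCODE lengths its CD34 negative mean lies below that of Dkk3. In CD34 positive CAFs the mean of Sfrp4 then lies below that of Sfrp1, whose length is the same in both.

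CD34 negative CAFs had more Dkk3, Frzb and Dkk2 RNA and less Sfrp4 and Sfrp2 RNA than CD34 positive CAFs of the same tumor. These 5 calls rest on the tumor being a term of the fit. In limma-voom without it, 0 of the 10 genes had an adjusted p under 0.05, against 0.121% of all tested genes, and 7 had an unadjusted p under 0.05, as had 14.3% of all tested genes. DESeq2 without the tumor term called 2 (Dkk3 and Frzb), against 4.70% of genes, and edgeR without it 0, against 0.0606%. With the tumor as a block, limma-voom called 5 of 10, against 8.57% of all tested genes. Of these, 3 were higher in CD34 negative CAFs (background 4.32%) and 2 lower (background 4.25%). The other tools, given the same block, differed: edgeR (quasi-likelihood) called only Sfrp4, against 3.87% of genes, and DESeq2 called 6, the same 5 and Rspo2, against 11.7%.

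The direction was the same in all 3 tumors for 8 of the 10 genes. Frzb, Wif1, Dkk2 and Dkk3 were higher in the CD34 negative library of each tumor, as were 22.8% of the tested genes, and Sfrp2, Sfrp4, Rspo2 and Rspo3 were lower, as were 23.4%. The CPM of the groups did not overlap for 4 of the 10 genes, against 20.4% of tested genes. Frzb and Dkk3 were higher in every CD34 negative library (background 10.4%) and Rspo2 and Rspo3 lower (background 10.0%).

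**Figure D2:**
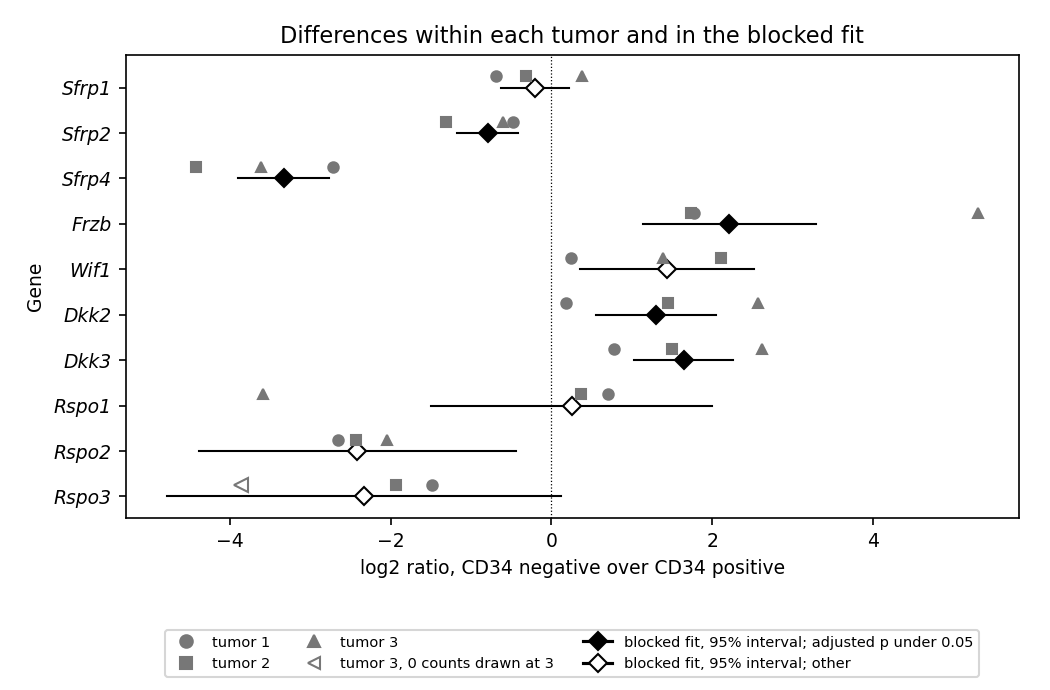
Log2 ratio of CD34 negative over CD34 positive CAFs for each gene, with grey symbols for the ratio within each tumor and a diamond with its 95% interval for limma-voom with the tumor as a block. Filled diamonds (Sfrp2, Sfrp4, Frzb, Dkk2 and Dkk3) have an adjusted p under 0.05, and the open triangle for Rspo3 in tumor 3, where the CD34 negative library had 0 counts, is drawn at 3 counts.

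Among the secreted Frizzled-related proteins, Sfrp4 (gene 20379, chr13:19623175-19632825) encodes a Wnt-binding protein known from bone and had the largest log2 difference of the 10 genes in the fit with the block. It had 130, 5.62 and 34.2 CPM in the CD34 negative CAFs of tumors 1, 2 and 3 and 853, 121 and 418 CPM in the CD34 positive CAFs. The level differed between tumors as well as between fractions: tumor 1 was highest and tumor 2 lowest in both, so the groups overlapped, with 130 CPM in the CD34 negative library of tumor 1 against 121 CPM in the CD34 positive library of tumor 2. Within tumors the log2 ratios were -2.72, -4.43 and -3.61. Tested over all libraries, it differed by -3.65 ± 1.08 (log2 fold change, SE) without the block (adjusted p = 0.186, limma-voom) and -3.33 ± 0.25 with it (adjusted p = 0.000237, limma-voom). In edgeR with the block the adjusted p was 0.00801, and with any 1 tumor left out the blocked limma-voom value stayed between -3.84 and -3.14 with the gene called.

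Sfrp2 (gene 20319, chr3:83765750-83774314), whose protein binds Wnt ligands through a Frizzled-like domain, had the highest mean level per kilobase of the 10 genes in both fractions with the deposited lengths. It had 278, 337 and 581 CPM in the CD34 negative CAFs of tumors 1, 2 and 3 and 385, 835 and 886 CPM in the CD34 positive CAFs. It was lower in the CD34 negative library of each tumor, but the groups overlapped because tumor 1 was low in both fractions. This gave a log2 fold change of -0.74 ± 0.39 without the block (adjusted p = 0.428, limma-voom) and -0.79 ± 0.17 with it (adjusted p = 0.0205, limma-voom). The call held without tumor 3, at -0.90 (adjusted p = 0.00857, blocked limma-voom). It was lost without tumor 2, at -0.55 (adjusted p = 0.191, blocked limma-voom), and in edgeR with the block (adjusted p = 0.0823). A non-coding gene on the opposite strand, Gm26771, shares 347 exon bases with Sfrp2 and has no row in the table, and since the library kit does not mark strand its reads cannot be told apart from those of Sfrp2.

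Frzb (gene 20378, chr2:80411970-80447396) encodes a Wnt-binding protein known from cartilage and is the member of this family that went the other way. It had 15.1, 29.6 and 39.7 CPM in the CD34 negative CAFs and 4.40, 8.86 and 0.988 CPM in the CD34 positive CAFs of tumors 1, 2 and 3. Every CD34 negative library was above every CD34 positive one, and the log2 ratios within tumors were 1.77, 1.74 and 5.30, the last set by the CD34 positive library of tumor 3. In limma-voom its log2 fold change was 2.37 ± 0.76 without the block (adjusted p = 0.218, limma-voom) and 2.21 ± 0.48 with it (adjusted p = 0.0220, limma-voom). It was 3.79 without tumor 2 and 1.74 without tumor 3, called in both, and the adjusted p was 0.0933 in edgeR with the block. DESeq2 called it without the block too, at 2.55 (adjusted p = 0.00398).

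Sfrp1 (gene 20377, chr8:23411383-23449632), which encodes another Wnt-binding protein of this family, had 532, 622 and 486 CPM in the CD34 negative CAFs and 857, 772 and 375 CPM in the CD34 positive CAFs. Its groups overlapped, and it was lower in the CD34 negative fraction of tumors 1 and 2 and higher in that of tumor 3. The log2 fold change was -0.21, with a 95% interval of -0.93 to 0.52 without the block (adjusted p = 0.803, limma-voom) and of -0.63 to 0.22 with it (adjusted p = 0.583, limma-voom). Without tumor 3 the blocked value was -0.52 and passed the test (adjusted p = 0.0382, limma-voom), and without tumor 1 its sign turned, at 0.03.

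Summed per kilobase, the 4 genes of this family had 339, 324 and 435 CPM per kilobase in the CD34 negative and 875, 666 and 766 CPM per kilobase in the CD34 positive CAFs of tumors 1, 2 and 3. The groups did not overlap, with means of 366 ± 60.1 and 769 ± 105 (SD, n = 3). The sum hides the opposite course of Frzb, which made up at most 1.92% of the antagonist RNA in any library.

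Dkk3 (gene 50781, chr7:112116019-112159482) encodes the divergent member of the Dickkopf family, which is not known as a binder of LRP5 or LRP6 in the way DKK1 is. It had 582, 629 and 780 CPM in the CD34 negative CAFs of tumors 1, 2 and 3 and 338, 222 and 127 CPM in the CD34 positive CAFs. All 3 CD34 negative libraries lay above all 3 CD34 positive ones, and the log2 ratios within tumors were 0.78, 1.50 and 2.62. The log2 fold change was 1.64 ± 0.35 without the block (adjusted p = 0.100, limma-voom) and 1.64 ± 0.27 with it (adjusted p = 0.00757, limma-voom). Dkk3 was called in each blocked fit without 1 tumor, at 1.13 to 2.05, and in the unblocked fit without the CD34 positive library of tumor 1, at 2.00 (adjusted p = 0.0490, limma-voom). The adjusted p was 0.0520 in edgeR with the block and 0.000789 in DESeq2 without it.

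Dkk2 (gene 56811, chr3:132085266-132180304), whose product binds LRP5 and LRP6, had 224, 131 and 142 CPM in the CD34 negative CAFs and 198, 48.2 and 24.0 CPM in the CD34 positive CAFs of tumors 1, 2 and 3. The fractions of tumor 1 were close, with a log2 ratio of 0.18, and those of tumors 2 and 3 were 1.45 and 2.57 apart, so that the groups overlapped through the CD34 positive library of tumor 1. Its log2 fold change was 1.53 ± 0.61 without the block (adjusted p = 0.316, limma-voom) and 1.30 ± 0.33 with it (adjusted p = 0.0429, limma-voom). Without tumor 1 the gene was called with or without the block, at 1.85 and 1.88, and without tumor 3 it was 0.81 with the block (adjusted p = 0.0494, limma-voom). In edgeR with the block the adjusted p was 0.132.

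The 2 Dickkopf genes summed to 234, 223 and 271 CPM per kilobase in the CD34 negative and 154, 79.1 and 44.2 in the CD34 positive CAFs. On the deposited lengths, the level of the Frizzled-related family was 1.45 to 1.61 times that of these Dickkopf genes in the CD34 negative CAFs. It was 5.68 to 17.3 times in the CD34 positive CAFs, without overlap.

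The make-up of the antagonist RNA differed between the fractions. Dkk3 made up 30.1%, 34.1% and 32.8% of the summed level per kilobase of the 7 antagonists in the CD34 negative CAFs of tumors 1, 2 and 3 and 9.75%, 8.87% and 4.65% in the CD34 positive CAFs. Sfrp4 made up 12.8%, 0.581% and 2.75% and 47%, 9.23% and 29.3% in the same order, with an overlap between tumor 1 and tumor 2. Sfrp1 and Sfrp2 had shares that overlapped between the fractions, at 10.6% to 25.9% and 18.7% to 56%. In sum, the 7 antagonists had 576, 550 and 708 CPM per kilobase in the CD34 negative and 1032, 745 and 811 in the CD34 positive CAFs, without overlap between the groups on the deposited lengths. With GENCODE exon lengths, an alternative chosen after seeing the data, the totals were 523, 535 and 674 against 737, 676 and 642 CPM per kilobase, so the groups overlapped and tumor 3 turned. On those lengths Dkk3 made up 33.1% to 35% and 5.87% to 13.6%, still without overlap. Sfrp4 made up 5.93%, 0.252% and 1.21% in the CD34 negative and 27.7%, 4.29% and 15.6% in the CD34 positive CAFs, still with overlap. The Frizzled-related family summed to 286 to 402 and 581 to 597 CPM per kilobase. These shares and sums have no test.

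**Figure D3:**
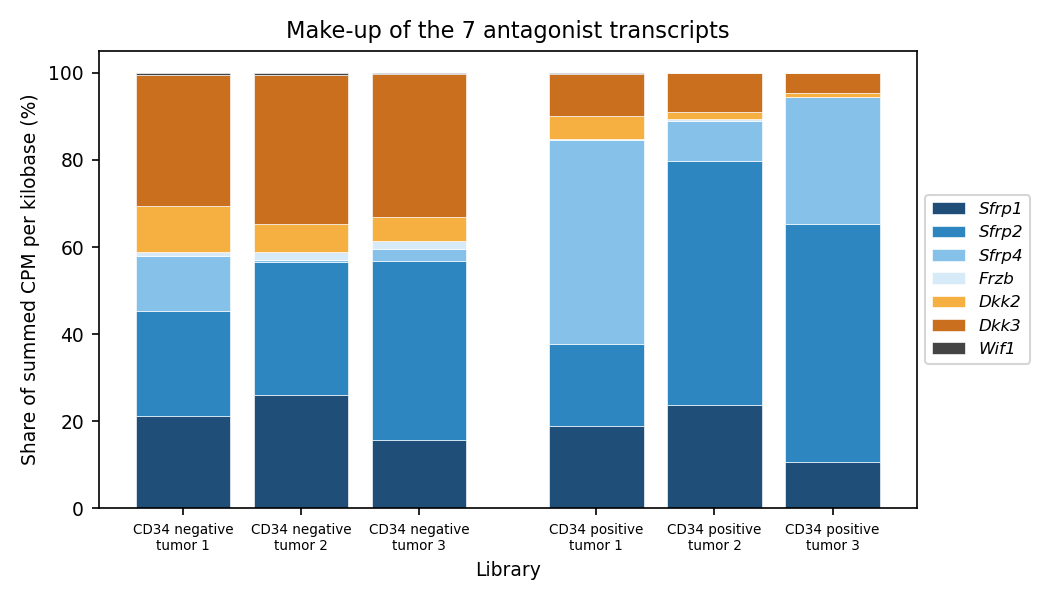
Share of each antagonist in the summed CPM per kilobase of the 7 antagonists, in percent, for each library. Dkk3 takes 30.1% to 34.1% of the total in CD34 negative CAFs and 4.65% to 9.75% in CD34 positive CAFs, and the share of Sfrp4 varies from 9.23% to 47% among the CD34 positive libraries.

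Wif1 (gene 24117, chr10:121034004-121100642) encodes a Wnt-binding inhibitor and is itself a target of the pathway in several tissues. It was low, with 6.75, 6.98 and 4.46 CPM in the CD34 negative CAFs and 5.69, 1.62 and 1.69 CPM in the CD34 positive CAFs of tumors 1, 2 and 3. The CD34 positive library of tumor 1 reached the range of the CD34 negative libraries. The log2 fold change was 1.65 (95% interval 0.58 to 2.73) without the block (adjusted p = 0.176, limma-voom) and 1.44 (0.35 to 2.52) with it (adjusted p = 0.109, limma-voom). The blocked value was 1.97 without tumor 1, 0.67 without tumor 2 and 1.34 without tumor 3 (adjusted p = 0.122, 0.837 and 0.0645, limma-voom).

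The R-spondins were near the lower end of what these libraries could measure. Rspo3 (gene 72780, chr10:29453106-29535867) had 30, 24 and 0 counts in the CD34 negative libraries and 24, 177 and 34 counts in the CD34 positive libraries of tumors 1, 2 and 3, or 0.534, 0.531 and 0 CPM against 1.49, 2.07 and 1.20 CPM. The groups did not overlap. In the CD34 negative library of tumor 3 a count of 0 allows up to 0.101 CPM, the upper end of its exact Poisson 95% interval. The CD34 positive library had 1.20 CPM, with an interval of 0.831 to 1.68. Both intervals cover counting error only. That 0 comes from the library with 159 genes at 0, described above. The log2 fold change with the block was -2.33, with a 95% interval of -4.79 to 0.12 (adjusted p = 0.240, limma-voom), and -3.23 without it (adjusted p = 0.332, limma-voom). Without the CD34 negative library of tumor 3 the unblocked value was -1.67, and without both libraries of tumor 3 the blocked value was -1.77 (adjusted p = 0.0657, limma-voom). An antisense gene, Gm48159, shares 404 exon bases with Rspo3 and has no row in the table, so its reads cannot be told apart here.

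Rspo2 (gene 239405, chr15:43020788-43171594) had 24, 12 and 13 counts in the CD34 negative and 44, 127 and 43 counts in the CD34 positive libraries. In CPM these were 0.427, 0.266 and 0.358 against 2.72, 1.49 and 1.52. Each CD34 negative library lay below each CD34 positive one, and the exact Poisson 95% intervals of the counts, which cover counting error only, reached at most 0.636 CPM in the former and began at 1.10 CPM in the latter. The log2 ratios within tumors were -2.66, -2.43 and -2.05. The log2 fold change was -2.19 ± 0.80 without the block (adjusted p = 0.281, limma-voom) and -2.42 ± 0.87 with it (adjusted p = 0.133, limma-voom). DESeq2 with the block called it (adjusted p = 0.0304), as did blocked limma-voom without tumor 3, at -2.57 (adjusted p = 0.0216).

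Rspo1 (gene 192199, chr4:124986401-125009102) had 3.77, 0.952 and 0.055 CPM in the CD34 negative CAFs and 2.29, 0.738 and 0.811 CPM in the CD34 positive CAFs. It followed the tumor more than the fraction, being highest in tumor 1 in both, and the CD34 negative library of tumor 3 held only 2 counts. The groups overlapped, and the log2 fold change was -0.19 without the block, with a 95% interval of -3.12 to 2.75 (adjusted p = 0.963, limma-voom), and 0.25 with it, with an interval of -1.50 to 2.00 (adjusted p = 0.893, limma-voom). Without the CD34 negative library of tumor 3 the unblocked value was 1.14. Rspo4, the fourth gene of the family, which is named after its values were seen, did not pass the filter on low counts. It had 5, 2 and 70 counts in the CD34 negative libraries and 0 in each CD34 positive library, so the CD34 negative library of tumor 3 had 1.93 CPM of it while holding 0 to 2 counts of Rspo1 and Rspo3.

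On the receptor side of the R-spondins, 5 of 5 listed genes were tested, 0 passed without the block (2 at an unadjusted p under 0.05) and 1 passed with it, against the 8.57% above. This was Lgr4, a receptor for R-spondins, with 10.7 to 28.3 CPM in the CD34 negative and 21.9 to 48.7 CPM in the CD34 positive CAFs. It was lower in the CD34 negative library of each tumor although the groups overlapped, with a log2 fold change of -1.03 ± 0.20 with the block (adjusted p = 0.0129, limma-voom). The call was lost without tumor 2, at -0.88 (adjusted p = 0.0908, blocked limma-voom). In that fit Lgr5, another R-spondin receptor, was called instead, at 1.85 against 1.07 with all tumors (adjusted p = 0.000115 and 0.166, blocked limma-voom). The ligases Rnf43 and Znrf3, which R-spondins block, had blocked log2 fold changes of 0.69 ± 0.99 and -0.06 ± 0.36 and did not pass. Rnf43 was at 0 in both libraries of tumor 3.

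Of 18 Wnt receptors and co-receptors, 16 were tested, with a median blocked log2 fold change of 0.24 against -0.01 over all tested genes. Without the block 0 passed, although 9 had an unadjusted p under 0.05 (14.3% of all tested genes did), and with it 5 were higher and 1 lower in CD34 negative CAFs, against 4.32% and 4.25% of all tested genes. The Frizzled genes Fzd1 and Fzd2 were higher, at 1.17 ± 0.18 (adjusted p = 0.00615, limma-voom) and 0.70 ± 0.14 (adjusted p = 0.0176), and Fzd4 was lower, at -1.72 ± 0.22 (adjusted p = 0.00233). Fzd2 lost its call without tumor 2, at 0.71 (adjusted p = 0.135, blocked limma-voom). Lrp5, the co-receptor bound by DKK2, was higher at 0.77 ± 0.15 (adjusted p = 0.0129, limma-voom), whereas Lrp6 stood at -0.23 ± 0.16 and did not pass. Kremen1, which encodes a receptor for DKK proteins, had 230, 301 and 266 CPM in the CD34 negative and 140, 184 and 141 CPM in the CD34 positive CAFs, without overlap, and a blocked log2 fold change of 0.78 ± 0.13 (adjusted p = 0.00626, limma-voom). Ptk7, a Wnt co-receptor of the non-canonical branch, was higher at 1.50 ± 0.20 (adjusted p = 0.00290, limma-voom).

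**Figure D4:**
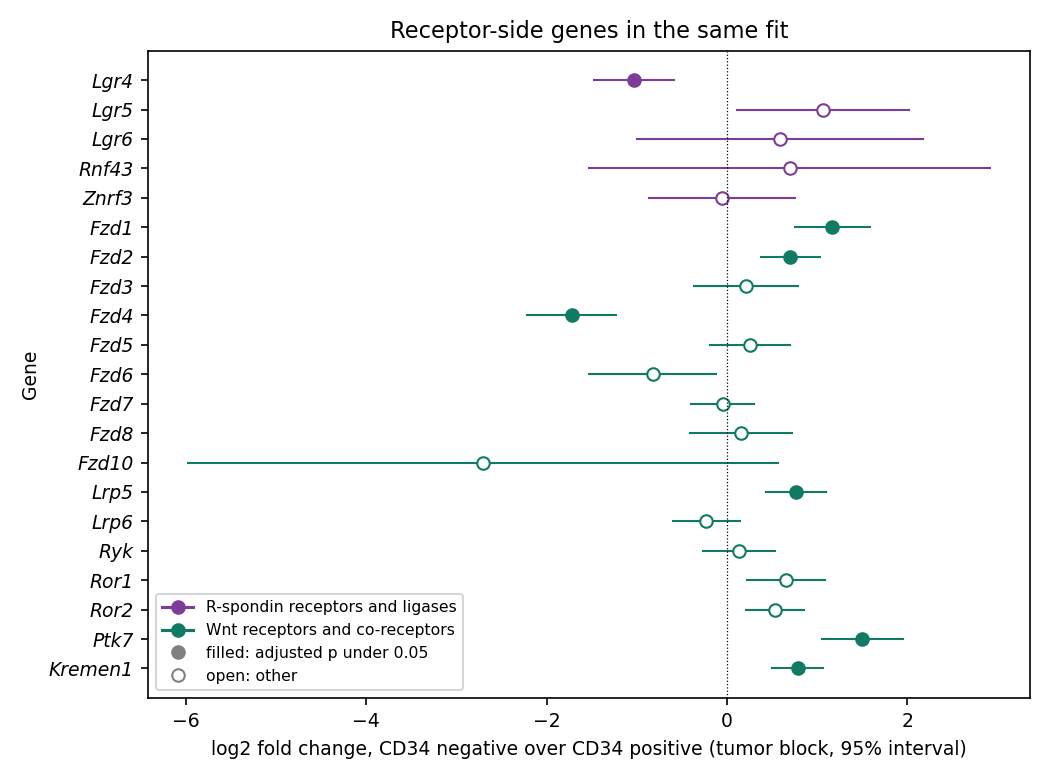
Log2 fold change of CD34 negative over CD34 positive CAFs, with its 95% interval, from limma-voom with the tumor as a block, for the 5 tested R-spondin receptors and ligases (purple) and the 16 tested Wnt receptors and co-receptors (green). Filled points have an adjusted p under 0.05: Lgr4 and Fzd4 lie to the left of 0, and Fzd1, Fzd2, Lrp5, Ptk7 and Kremen1 to the right.

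Most of the remaining secreted antagonists fell below the filter on low counts. Of 11 listed genes, Dkk1 and Sfrp5 among them, 3 were tested (Notum, Draxin and Igfbp4). The 11 also include the untested Rspo4, which is an R-spondin and not an antagonist. In limma-voom 0 passed with or without the block and 0 had an unadjusted p under 0.05. DESeq2 and edgeR called 0 as well. Of 19 Wnt ligand genes 12 were tested, and with the block 2 were higher (Wnt9a at 1.25 ± 0.16 and Wnt11 at 1.25 ± 0.16) and 1 lower (Wnt2 at -0.68 ± 0.15, adjusted p = 0.0214, limma-voom), against 8.57% of all tested genes called. Wnt2 lost its call without tumor 1, at -0.60 (adjusted p = 0.0594), and without tumor 2, at -0.81 (adjusted p = 0.0502, both blocked limma-voom). Of 16 feedback and target genes 13 were tested, and with the block Nkd2 (1.88 ± 0.30), an intracellular inhibitor of the pathway, and Ccn4 (0.87 ± 0.19) were higher and Myc (-0.94 ± 0.13) was lower, which is 3 called against the same 8.57%. Ccn4 was 0.55 without tumor 3, still called, and its adjusted p was 0.0813 in edgeR with the block. Axin2, a widely used readout of canonical Wnt signaling, had 20.4, 12.8 and 29.8 CPM in the CD34 negative and 16.1, 11.4 and 21.4 CPM in the CD34 positive CAFs of tumors 1, 2 and 3. It was the higher one in the CD34 negative library of each tumor, but its blocked log2 fold change of 0.33 ± 0.20 did not pass (adjusted p = 0.376, limma-voom). Without the block 0 ligands and 0 feedback genes passed in limma-voom, with 4 and 5 at an unadjusted p under 0.05. Wif1 and Lgr5 were among these 5 feedback genes.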

How the data were processed

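The deposited values were raw counts per NCBI gene for 6 libraries, with no normalization. Per the study's methods and the submitters' processing notes, the authors sequenced TruSeq RNA v2 libraries, aligned reads to GRCm38 (mm10) and counted them with featureCounts of Rsubread. The strand setting and the handling of reads with several matches were not given in the sources used here. Library totals were 16238059 to 86609267 counts, and the smallest total limits low genes most: 3 counts correspond to 0.0351 to 0.186 CPM.

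Groups and tumor numbers came from the sample titles. Low genes were removed with filterByExpr (minimum count 10), and the groups were compared with TMM factors, voom and limma, two-sided, with Benjamini-Hochberg adjustment over 14855 genes and a threshold of 0.05. CPM were scaled by library size and TMM factor. R 4.3.3, limma 3.58.1, edgeR 4.0.16 and DESeq2 1.42.0 were used, and the scripts were tested on simulated data. Positive log2 values mean higher expression in CD34 negative CAFs.

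Both fractions of a pair came from one tumor, and deviations from the group means correlated within tumors at 0.373, 0.350 and 0.219. The study's methods state no term for the tumor, so the fit without it came first, and the fit with the tumor as a block is given wherever it changes a call. No 2 libraries agreed within sampling noise.

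The 10 genes and the gene lists were chosen with earlier results of these data known. Named were the 10 genes, genes of the other Wnt lists with an adjusted p under 0.05 without or with the block, Lgr4, Rnf43, Znrf3, Lrp5, Lrp6 and Axin2 in any case, Cd34, Pdgfra and the most abundant gene of each marker list. Gm26771 and Gm48159 were added for their overlap, and untested genes as examples. Alternatives covered scaling, filter, annotation, test, tumor block, transcript length and left-out libraries or tumors. Positions and promoter windows are from RefSeq on GRCm38.p6, and exon lengths and overlaps from GENCODE M21.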

Additional observations from a re-analysis of the deposited data

How the results depend on the processing

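Every alternative kept the direction of Sfrp2, Sfrp4, Frzb, Wif1, Dkk2, Dkk3, Rspo2 and Rspo3. Sfrp1 turned from -0.21 to 0.059 without the CD34 positive library of tumor 1 and without tumor 1, and to 0.03 without tumor 1 in the fit with the tumor block (-0.59 to 0.059 over all left-out fits). Rspo1 turned from -0.19 to 0.34 in edgeR, 0.32 in DESeq2, 0.55 with sample quality weights and 0.25 with the block, and lay between -1.69 and 1.14 when libraries or tumors were left out (positive at 1.14, 0.02 and 1.01 without the block and at 0.35 and 0.54 with it). The level of Rspo2 in CD34 negative CAFs moved from 0.105 to 0.0685 CPM per kilobase with the GENCODE length, and the sums in CD34 positive CAFs from 769 to 591 for the Frizzled-related family and from 863 to 685 for the 7 antagonists. These levels changed only through the length that divides the CPM. The cause of the turned signs was not tested.

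The counts of calls depended on the tumor block and the tool. Of all tested genes, 18 passed by limma-voom, 32 with library totals only, 9 in edgeR, 698 in DESeq2 and 161 with quality weights. With the block, limma-voom called 1273, edgeR 575 and DESeq2 1733, and the left-out fits called 0 to 86 without and 851 to 2019 with the block (0 to 2019 in all). Of the 10 genes, 0 passed by limma-voom, 2 in DESeq2, and with the block 5, 1 in edgeR and 6 in DESeq2, with 0 to 2 in left-out fits without the block and 4 to 7 with it (0 to 7 in all). DESeq2 without the block gave no adjusted p for Rspo2 and Rspo3. For the R-spondin receptors and ligases 1 passed with the block by each tool and in each left-out blocked fit (0 to 1 in all), Lgr4 in each of these but the one without tumor 2, in which it was Lgr5. For the Wnt receptors 6 passed in DESeq2, 1 with quality weights, and with the block 6, 6 in edgeR and 8 in DESeq2, with 5 to 7 in left-out blocked fits (0 to 7 in all). For the ligands 3 passed in DESeq2, 2 with quality weights, and with the block 3, 3 in edgeR and 5 in DESeq2 (0 to 5 in left-out fits, with Wnt2 called in the blocked ones only without tumor 3). For the feedback genes 2 passed in DESeq2, and with the block 3, 2 in edgeR and 3 in DESeq2 (0 to 4 in left-out fits). The list of other secreted antagonists, which also holds Rspo4, stayed at 0 in every fit. With 3 tumors and R-spondin counts from 0 to 212, differences of the R-spondins have wide intervals.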
